A study of Mus musculus with 54 samples.

Results

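Mock-transfected M1-like and M2-like macrophages were compared across the whole transcriptome, beyond the extended signature of metabolic and literature-derived polarization genes with which the study scored its knock-downs. The comparison rests on 6 of the 54 libraries of the series, chosen by their labels: 3 of M1-like mock and 3 of M2-like mock cells, among the 36 paired-end libraries of the reprogramming experiment. The cells were thioglycolate-elicited peritoneal exudate cells of C57BL/6 mice. M1-like cells had received IFN-γ at 50 ng/ml together with LPS at 100 ng/ml for 24 h, and M2-like cells 10 ng/ml IL-4 for 24 h. Mock cells of both polarizations were then exposed to the transfection reagent without siRNA and harvested 48 h later, and per the study's methods the culture after transfection went on without IL-4. M0 mock cells had received the reagent but no polarizing agent, while the untransfected cells of the same experiment, polarized likewise or left as M0, received neither reagent nor siRNA. The sample titles give no harvest time for these untransfected libraries. The study's methods name 24 h after polarization for profiles without transfection, so a match in time with the mock cells is not stated. The study's methods speak of 3 biological replicates for the polarized, unpolarized and reprogrammed cells without naming the mock cells, and the labels do not say whether the 3 libraries of a group come from separate mice or cultures. The p-values measure the spread between libraries of the same condition, estimated over all 36 paired-end libraries, part of which may be technical.

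Macrophages read LPS through Toll-like receptors and IFN-γ through the JAK-STAT pathway, in which the factor IRF1 and others switch on genes for antimicrobial GTPases, antigen presentation and nitric oxide synthesis. IL-4 signals through STAT6 and is known for the induction of the mannose receptor, chitinase-like proteins and resistin-like molecules. Type I interferon, the cytokine of antiviral defence, induces a further set of antiviral genes that overlaps with the IFN-γ response and is commonly read through the interferon-stimulated response element (ISRE) of its target promoters.

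Sequencing depth was similar in both groups, with 16008732 to 18092315 counted reads in M1-like mock and 14959343 to 16499677 in M2-like mock. The 50 most abundant genes took 21.9 to 24.1% of the reads in M1-like mock and 26.7 to 27.3% in M2-like mock. Levels are given as CPM, that is, reads of the gene scaled to the size of the library with TMM factors, in which values of different genes are not comparable because the length of the gene is not taken into account. A gene was called higher or lower where edgeR's quasi-likelihood test gave an adjusted p under 0.05, and fold changes are log2 values of M1-like mock minus M2-like mock ± SE.

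The labels were checked on 4 classical marker genes. Nos2, the inducible nitric oxide synthase, stood at 524, 560 and 421 CPM in M1-like mock and at 0.192, 0.21 and 0.139 CPM in M2-like mock. Mrc1, the mannose receptor, had 29.9, 19.2 and 22.9 CPM in M1-like mock and 334, 363 and 272 CPM in M2-like mock. Chil3 encodes a chitinase-like protein and reached 5.76, 3.93 and 5.46 CPM against 950, 910 and 687 CPM. All 3 genes separated the groups in the direction of the labels. Retnla, a resistin-like molecule, was at 0, 0.295 and 0.058 CPM in M1-like mock and between 140 and 480 CPM in M2-like mock, so its groups did not overlap either. The macrophage identity of the cells was checked on 8 macrophage markers, all of which were detected in both groups. Their summed level was 6344 to 7361 CPM in M1-like mock and 15116 to 16334 CPM in M2-like mock, with 7 of 8 genes called lower and none higher in M1-like mock. Lyz2 (lysozyme) and Csf1r (the receptor for the macrophage growth factor CSF1) were among them, with log2 fold changes of -1.47 ± 0.10 and -1.39 ± 0.10.

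The difference between the polarizations covered most of the measured transcriptome. Of 14172 genes tested, 4373 were called higher (30.9%) and 4224 lower (29.8%) in M1-like mock. In 8802 genes (62.1%) the 3 libraries of a group were all above the 3 of the other. The median log2 fold change over all genes was 0.03. Among the 111 signature genes tested, 42 were higher and 36 lower, which leaves 4331 higher and 4188 lower genes outside the signature. Large changes were more often decreases. Among genes that changed by 1 or more on the log2 scale, 1136 genes outside the signature were higher and 1765 lower, and at 3 or more, 164 were higher and 474 lower. In bulk RNA, fewer cells of a type and less RNA per cell cannot be told apart, and this holds for each gene described.

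**Figure D1:**
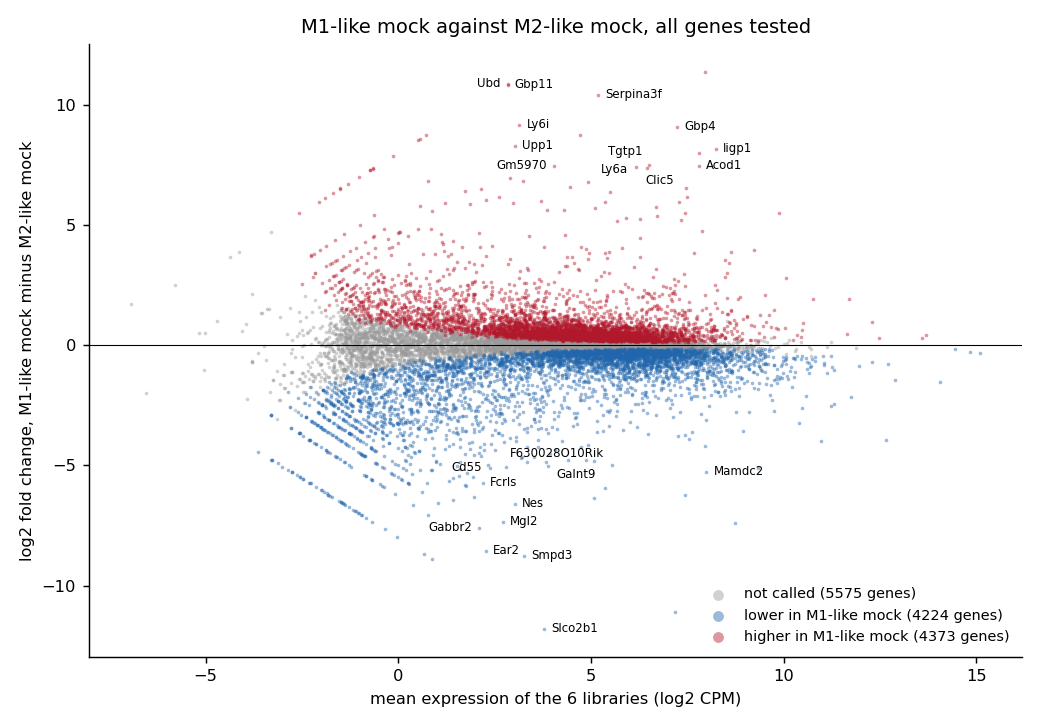
Log2 fold change of M1-like mock minus M2-like mock against the mean log2 CPM of the 6 libraries for each of 14172 genes, coloured by the call (red, 4373 higher; blue, 4224 lower; grey, not called). The 23 labelled genes are the 12 largest increases and 11 of the 12 largest decreases outside the signature, and the decreases reach further down over the low and middle range of expression.

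The largest increases outside the signature were led by genes that were silent or nearly silent in M2-like mock. Ubd, on chromosome 17 (chr17:37193892-37196095 of GRCm38), encodes the ubiquitin-like modifier FAT10 and had 12.2, 15.5 and 15.4 CPM in M1-like mock and no read in any M2-like mock library, which makes it at least 212.5-fold higher. Gbp11, annotated as a polymorphic pseudogene of the guanylate-binding protein family, had 11, 17 and 14.8 CPM against no read, at least 211.7-fold higher. Both bounds set the empty group at 3 counts over its 3 libraries. Serpina3f, a serine protease inhibitor gene of a cluster of close copies, had 54.2, 91.7 and 73.1 CPM in M1-like mock and only 2 reads in M2-like mock, a ratio of 1629 with a 95% counting interval of 450.6 to 13450. For Ly6i, a Ly6 family surface protein, and Upp1, the uridine phosphorylase, the M2-like mock libraries held 1 and 2 reads, and the ratios were 776.5 (139 to 30700) and 368.5 (101.7 to 3047). Such intervals cover counting error only.

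Genes with reads in both groups followed. Gbp4, a guanylate-binding protein, stood at 235, 377 and 286 CPM in M1-like mock and 0.256, 0.561 and 0.837 CPM in M2-like mock (log2 fold change 9.09 ± 0.28, adjusted p = 7.79e-23). Acod1 makes itaconate from a citric acid cycle intermediate and stood at 410, 481 and 438 CPM against 1.34, 3.08 and 3.14 CPM (7.47 ± 0.48). Clic5, an intracellular chloride channel protein, had 140, 237 and 147 CPM against 1.34, 1.19 and 0.558 CPM (7.38 ± 0.27). No library of M2-like mock reached a library of M1-like mock in these genes. Such separation was a condition of their choice, and 62.1% of all genes tested showed it in either direction. The remaining members of the 12 were the interferon-inducible GTPase genes Iigp1 (8.18 ± 0.30) and Tgtp1 (7.50 ± 0.31), the pseudogene Gm5970 (7.45 ± 0.36), which overlaps the GTPase gene Gm4951 (5.73 ± 0.17), and the surface protein gene Ly6a (7.43 ± 0.38). Tgtp1 has a nearly identical neighbour, Tgtp2, and reads of such copies may have been split or lost in the authors' counting.

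The largest decreases outside the signature were led by genes with few or no reads in M1-like mock. Slco2b1, an organic anion transporter on chromosome 7 (chr7:99657804-99711340), was without a read in M1-like mock and had 26.1, 32.9 and 24.2 CPM in M2-like mock, at least 516.1-fold lower in M1-like mock. Smpd3, a neutral sphingomyelinase, had 2 reads in M1-like mock and 16.4, 18.4 and 22.1 CPM in M2-like mock (ratio 529.8, 146.2 to 4382). Ear2, a ribonuclease of the eosinophil-associated family, had 1 read against 10.3, 10.5 and 7.95 CPM (ratio 538, 96.05 to 21300). All 3 genes were at or near zero in every M1-like mock library. The metabotropic GABA receptor gene Gabbr2 was likewise down to 2 reads (ratio 238.6, 65.61 to 1978).

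Mgl2, a galactose-type lectin of IL-4-treated macrophages, had 0.163, 0.0491 and 0 CPM in M1-like mock and 12.9, 15.8 and 10.2 CPM in M2-like mock (-7.36 ± 0.48). Nes (nestin, an intermediate filament protein) had 0.217, 0.196 and 0.058 CPM against 16.4, 19.8 and 12.3 CPM (-6.59 ± 0.28). Mamdc2, on chromosome 19, encodes a secreted MAM domain protein and was abundant in M2-like mock, with 532, 472 and 490 CPM against 10.8, 14 and 13.6 CPM (-5.28 ± 0.15). These genes were likewise chosen by the size of the change, with separation of the groups as a condition. The spread within M2-like mock was small beside the difference, which follows in part from that choice. Further members of the 12 were the Fc receptor-like gene Fcrls (-5.73 ± 0.49), the complement regulator gene Cd55 (-5.10 ± 0.33), the transcript F630028O10Rik (-5.07 ± 0.32) and the glycosyltransferase gene Galnt9 (-5.04 ± 0.27).

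Non-coding transcripts took part in the difference in both directions. Of 700 long non-coding RNA genes outside the signature, 232 were higher and 101 lower in M1-like mock, with a median log2 fold change of 0.39 against 0.02 over the 12169 protein-coding genes. Of 878 pseudogenes, 157 were higher and 232 lower, with a median of -0.08. AW112010, an interferon-inducible long non-coding RNA, had 83.3, 137 and 80.4 CPM in M1-like mock and 2.37, 2.52 and 3.56 CPM in M2-like mock (5.16 ± 0.34). Gm13012 lies antisense to Ece1, the endothelin-converting enzyme gene, and both were higher (6.05 ± 0.32 and 2.55 ± 0.18). Dnmt3aos lies antisense to the DNA methyltransferase gene Dnmt3a, and both were lower (-3.65 ± 0.19 and -2.72 ± 0.14). The strand setting of the counting is not given in the sources used here, so reads of such pairs cannot be told apart. F630028O10Rik overlaps the microRNA gene Mir223 and had 0.598, 0.295 and 0.29 CPM in M1-like mock against 15, 14.2 and 11.1 CPM in M2-like mock. The pseudogenes Gm13502 (-3.11 ± 0.25) and AA414768 (-2.90 ± 0.20) were the next largest decreases among non-coding genes.

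The genes were then read by function, in lists of pathways, complexes and families. The counts of each list stand against the 30.9% higher and 29.8% lower genes and the median of 0.03 over all genes tested. Cell type markers aside, the highest medians were those of the interferon-inducible GTPases, MHC class II and MHC class I presentation, and the lowest those of the IL-4 genes, cholesterol synthesis and matrix genes.

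**Figure D2:**
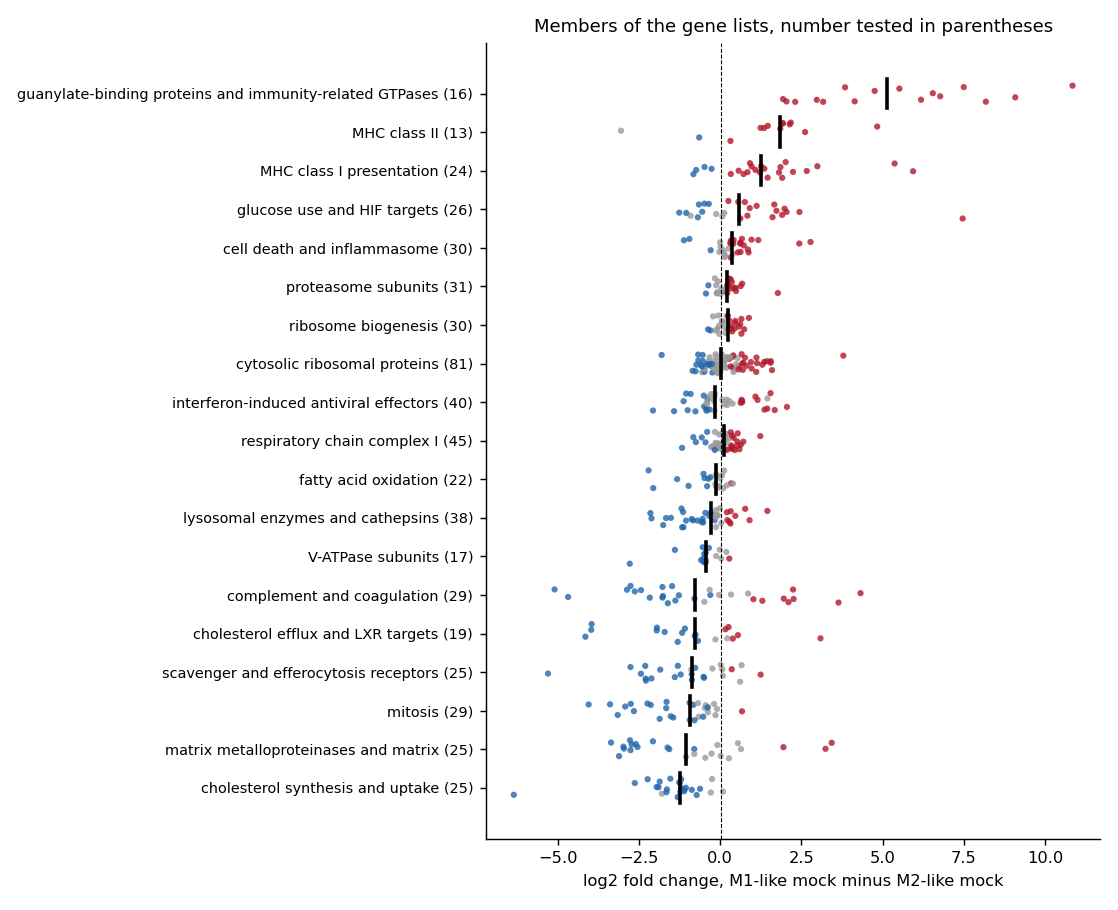
Log2 fold change of M1-like mock minus M2-like mock for the tested members of 19 gene lists, called higher (red), called lower (blue) or not called (grey). The black bar is the median of the list, and the dashed line the median over all genes tested (0.03). Medians run from 5.14 for the interferon-inducible GTPases to -1.24 for cholesterol synthesis and uptake, and the antiviral effectors spread over both sides of 0.

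The guanylate-binding proteins and immunity-related GTPases attack the membranes of vacuoles that hold intracellular pathogens. All 16 tested genes of the 19 listed were higher in M1-like mock, with a median log2 fold change of 5.14. Their summed level was 4708, 6763 and 5890 CPM in M1-like mock and 254.4, 350.7 and 342.6 CPM in M2-like mock. Gbp2 stood at 1382, 2251 and 1897 CPM in M1-like mock against 37, 40.2 and 43.4 CPM (5.52 ± 0.26). Gbp7 had 423, 517 and 434 CPM against 14.3, 19.4 and 17.2 CPM (4.76 ± 0.17). For the immunity-related GTPase gene Igtp, 148, 222 and 190 CPM compared with 17, 23.8 and 21.4 CPM (3.17 ± 0.19). The lowest library of M1-like mock was far above the highest of M2-like mock in each of these genes. Gbp9 had the smallest difference on the list, 1.94 ± 0.22. Members of the family share long stretches of sequence, and values of single members are uncertain to that extent.

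The promoters of the family were searched for the letters of the ISRE core (GAAA, any 2 bases, GAAA) on both strands over the 250 bases before the start of the gene in the RefSeq promoter table of GRCm38.p6. Of the 10 GTPase genes with an entry, 9 held the letters (90%), compared with 3.46% of all 27025 genes of the table and 3.47% of the 10137 tested genes with an entry. The letters of a GAS element, the IFN-γ-activated site, TTCNNNGAA, were found in 5 of the 10 promoters and in 8.13% of all promoters. For the antiviral effectors described next, 14 of 29 promoters held the ISRE core (48.3%). Over all genes called higher in M1-like mock the share was 4.02%, and over those called lower 3%. A match describes the sequence only. Shown for 3 GTPase and 2 antiviral genes, chosen because they hold the core, are the 250 bases of the plus strand for Gbp2 (chr3:142620413-142620662), Gbp7 (chr3:142530086-142530335), Igtp (chr11:58199306-58199555), Ifit1 (chr19:34640639-34640888) and Ifit3 (chr19:34583279-34583528), all genes of the plus strand, 5′ to 3′ with the core or its reverse complement in capitals.
Gbp2: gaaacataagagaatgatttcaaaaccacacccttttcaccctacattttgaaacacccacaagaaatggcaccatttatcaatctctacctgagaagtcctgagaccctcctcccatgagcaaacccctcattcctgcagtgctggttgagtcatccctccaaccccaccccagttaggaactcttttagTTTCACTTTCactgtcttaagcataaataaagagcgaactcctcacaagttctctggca
Gbp7: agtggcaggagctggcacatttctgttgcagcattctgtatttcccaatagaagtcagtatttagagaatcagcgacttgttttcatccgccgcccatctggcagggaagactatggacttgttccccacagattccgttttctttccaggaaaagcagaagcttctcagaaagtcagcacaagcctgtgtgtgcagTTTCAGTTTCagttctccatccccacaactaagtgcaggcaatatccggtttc
Igtp: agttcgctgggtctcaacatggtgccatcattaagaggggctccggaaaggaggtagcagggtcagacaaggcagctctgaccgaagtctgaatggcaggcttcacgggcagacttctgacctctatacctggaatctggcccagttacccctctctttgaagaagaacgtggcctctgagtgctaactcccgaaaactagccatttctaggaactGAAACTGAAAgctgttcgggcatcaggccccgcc
Ifit1: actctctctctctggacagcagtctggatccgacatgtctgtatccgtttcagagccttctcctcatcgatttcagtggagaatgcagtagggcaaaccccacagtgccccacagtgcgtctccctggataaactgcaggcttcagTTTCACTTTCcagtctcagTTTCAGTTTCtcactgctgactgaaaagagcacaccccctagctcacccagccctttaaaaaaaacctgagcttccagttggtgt
Ifit3: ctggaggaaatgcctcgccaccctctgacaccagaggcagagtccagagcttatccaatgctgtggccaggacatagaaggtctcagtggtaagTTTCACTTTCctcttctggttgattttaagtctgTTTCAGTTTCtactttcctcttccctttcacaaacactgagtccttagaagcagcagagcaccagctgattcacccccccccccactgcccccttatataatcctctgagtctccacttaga
In Gbp2, Gbp7 and Igtp the single core ended 49, 43 and 24 bases before the start of the gene. Ifit1 and Ifit3 held 2 cores each, which ended 75 and 94 bases before the start in Ifit1 and up to 146 bases before it in Ifit3.

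The antiviral effectors, which block viral RNA, protein synthesis and budding, did not follow the GTPases. Of 40 tested genes, 11 were higher and 13 lower in M1-like mock, and 16 were not called. Their median log2 fold change was -0.17. The summed level of the list was 3609, 3901 and 3837 CPM in M1-like mock and 2435, 3833 and 3730 CPM in M2-like mock, so that the groups overlapped and M2-like mock replicate 1 lay below the rest. Without that library 10 genes were higher and 17 lower.

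Single members went both ways. Rsad2 encodes viperin, an inhibitor of viral RNA synthesis, and had 399, 379 and 346 CPM in M1-like mock against 89.8, 147 and 146 CPM (1.55 ± 0.19, adjusted p = 3.21e-08). Zbp1, a sensor of left-handed nucleic acids, had 109, 147 and 135 CPM against 20, 33.9 and 40.4 CPM (2.06 ± 0.29). Ifi205 had a difference of 1.68 ± 0.27. Lower members included Oas2, a sensor of double-stranded RNA, with 23.8, 29.3 and 27.2 CPM against 39.2, 70.1 and 66.2 CPM (-1.13 ± 0.19), and Ifi27l2a with 34.2, 28.7 and 31.1 CPM against 65.5, 102 and 83.5 CPM (-1.42 ± 0.31). These groups did not overlap. Ifit3b was lower as well (-2.07 ± 0.45), but reads of Ifit3 and Ifit3b, which are close copies, are uncertain. For Mx1, a dynamin-like GTPase that traps viral nucleocapsids, 27.5, 21.7 and 30 CPM in M1-like mock lay within the 19.2, 40 and 43.1 CPM of M2-like mock (-0.37 ± 0.27, adjusted p = 0.242).

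Mock-treated and untransfected cells of the same experiment were compared next, to see how far the polarization difference of the mock cells also held in cells without reagent. In untransfected cells M1-like cells had 4429 higher and 4282 lower genes. Of the 4373 genes higher in mock, 3721 were higher and 0 lower in untransfected cells. Of the 4224 lower in mock, 3682 were lower and 17 higher. The difference between both contrasts was tested as an interaction in the same model, and 160 genes passed (1.13%). In 155 of them the M1-like minus M2-like value was smaller in mock, and in 5 it was larger.

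The 155 genes included 36 of the 40 antiviral effectors, 10 of the 16 interferon-inducible GTPases and 14 of the 24 MHC class I genes. For the antiviral effectors the median log2 fold change was 2.49 in untransfected cells, with 36 genes higher and none lower, and 37 of the 40 were higher in M2-like mock than in untransfected M2-like cells. In 154 of the 155 genes every M2-like mock library was above every untransfected M2-like library, a pattern that 914 of all 14172 genes showed. Of the 155 genes, 152 were called higher in M2-like mock than in untransfected M2-like cells. Both counts follow in part from the choice of the 155 genes, since these libraries enter the tested difference. None of the 155 genes was called between M1-like mock and untransfected M1-like cells. Over all genes, edgeR called 0 genes in that last comparison (438 at an unadjusted p under 0.05) and 237 higher and 14 lower in M2-like mock than in untransfected M2-like cells. In 138 of the 155 genes the M0 mock libraries were also all above the untransfected M0 libraries, against 2591 of all genes.

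Ifit2, which binds foreign RNA, showed the pattern in full. It stood at 57.6, 167 and 157 CPM in M2-like mock and at 4.58, 1.68 and 2.65 CPM in untransfected M2-like cells. In M1-like cells it was at 329, 357 and 355 CPM with and 275, 340 and 295 CPM without the reagent. The polarization difference was 1.45 ± 0.31 in mock and 6.69 in untransfected cells, and the interaction was -5.24 ± 0.53 (adjusted p = 6.81e-08). The 3 M2-like mock libraries were all above the 3 untransfected ones, and replicate 1 was the lowest of them. Ifit3 had 27.5, 75.4 and 78.8 CPM in M2-like mock against 2.22, 0.773 and 1.12 CPM in untransfected M2-like cells, with an interaction of -5.24 ± 0.60, and was lower in M1-like mock than in M2-like mock (-0.76 ± 0.31) while its value in untransfected cells was 4.48. Ifi213 (-5.43 ± 0.67) and Ifi44 (-5.29 ± 1.0) followed, with Ifi213 at 8.07 to 23.6 CPM in M2-like mock and 0.0645 to 0.787 CPM without reagent.

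M2-like mock replicate 1 was the lowest library of its group in 125 of the 155 genes, against 4533 of all 14172 genes. The number of genes smaller in mock was 164 without that library, 109 without M2-like mock replicate 2 and 116 without replicate 3. Il12rb1, a chain of the IL-12 receptor, had a fitted interaction of -5.83 ± 1.45, whose size depends on the handling of zeros. It had 0.128, 0.28 and 0.767 CPM in M2-like mock and no read in untransfected M2-like cells, and it lost its call when M2-like mock replicate 2 or 3 or any untransfected M2-like library was left out. The call of Ifit3b (-5.71 ± 1.31) was lost without untransfected M1-like replicate 2 or 3 or M2-like replicate 1 or 3.

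Larger in mock were the values of Cd48 (0.52 ± 0.12), a ligand of lymphocyte receptors, Mrgpre (0.48 ± 0.12), Tfrc (0.47 ± 0.12), the transferrin receptor, and Rnf128 (0.41 ± 0.10), a ubiquitin ligase, all 4 of which had a negative value in mock. Each of the 4 lost its call without untransfected M1-like replicate 1 or 3 and without M2-like mock replicate 3, among other libraries. The count of 5 became 3 without untransfected M1-like replicate 2, 9 without replicate 3 and 1 without untransfected M2-like replicate 3. It was 2 without M1-like mock replicate 3 or M2-like mock replicate 2 or 3, and 8 without M2-like mock replicate 1.

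The interferon-inducible GTPases moved with the antiviral genes only in part. Of the 16, 10 had a smaller difference in mock, with a median interaction of -1.56, and 11 were higher in M2-like mock than in untransfected M2-like cells. Gbp2 in M2-like cells was at 37 to 43.4 CPM with and 16.8 to 18.8 CPM without reagent, both far below the M1-like libraries. Irf1, the interferon-induced factor that drives many of these genes, had 679, 815 and 737 CPM in M1-like mock and 42.3, 55 and 56.1 CPM in M2-like mock (3.86 ± 0.13), and its interaction was -0.73 ± 0.17. What in the mock treatment accompanies the higher interferon genes in M2-like and M0 cells was not tested.

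**Figure D3:**
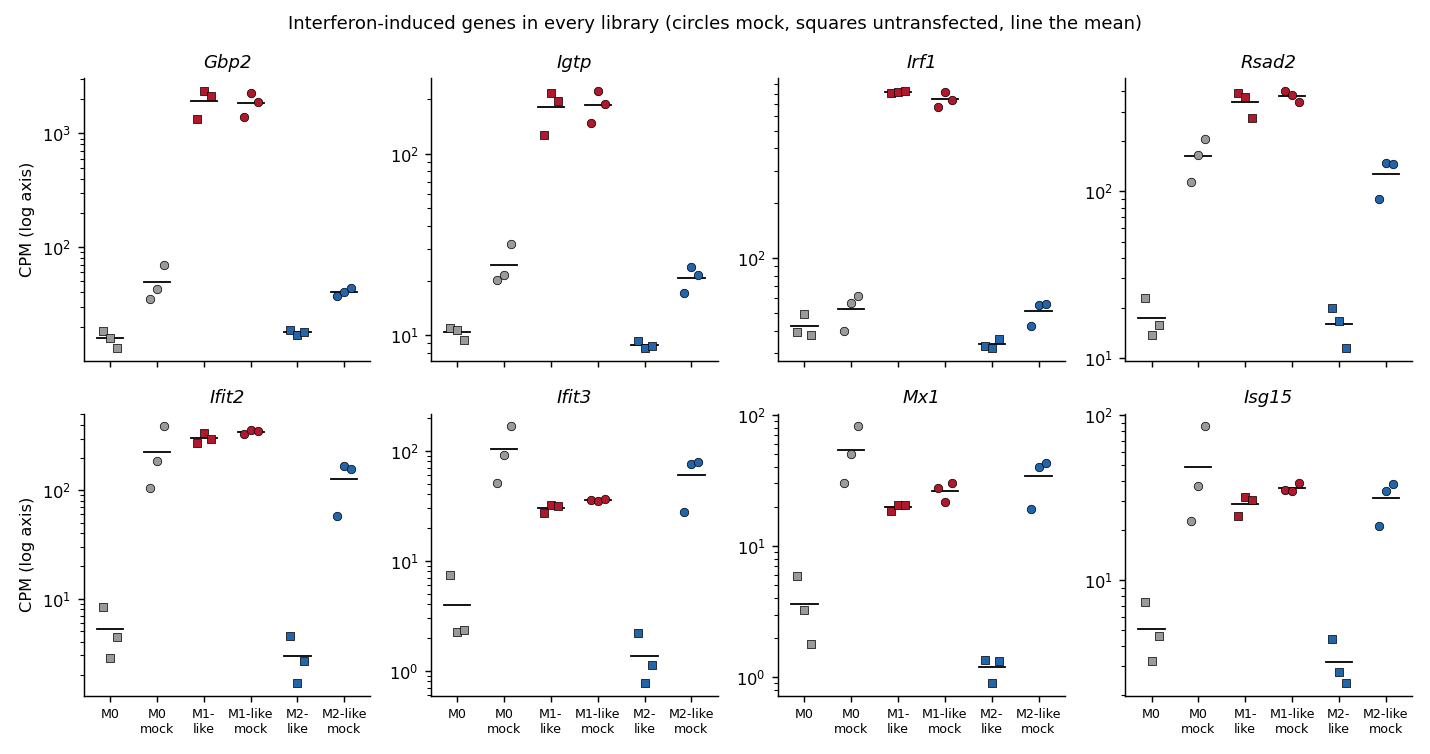
CPM on a log axis of 8 interferon-induced genes in each library of untransfected (squares) and mock (circles) M0 (grey), M1-like (red) and M2-like (blue) cells, with the mean of 3 as a line. M1-like libraries stay level with and without reagent, whereas M2-like mock and M0 mock lie above their untransfected cells, near M1-like levels for Ifit3, Mx1 and Isg15 and far below them for Gbp2, Igtp and Irf1.

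Antigen presentation genes were higher in M1-like mock for both classes. Of 13 MHC class II genes 11 were higher and 1 lower, with a median of 1.85. Ciita, the master regulator of the class, had 131, 165 and 141 CPM against 30.7, 32.6 and 33.5 CPM (2.18 ± 0.13). Cd74, the invariant chain, had 5222, 4423 and 6025 CPM against 1358, 1473 and 1255 CPM (1.94 ± 0.13). Neither gene overlapped between the groups. H2-Oa and H2-Ob, which form the inhibitor of peptide loading, differed by 4.84 ± 0.80 and 2.62 ± 0.59 at low levels. Ifi30, a lysosomal thiol reductase that prepares antigens, was the lower member, with 170, 159 and 192 CPM against 291, 258 and 263 CPM (-0.64 ± 0.10). A second member was called lower without M2-like mock replicate 1. None of the 13 genes was called for a difference between the mock and the untransfected contrast.

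Of 24 genes of MHC class I presentation 20 were higher and 4 lower, with a median of 1.25. Tap1, a subunit of the peptide transporter, had 630, 682 and 676 CPM against 64.3, 92.9 and 92.4 CPM (2.99 ± 0.13). The class Ib genes H2-Q6 and H2-Q7 had the largest values (5.94 ± 0.23 and 5.37 ± 0.20), though these close copies may share reads. The chaperones Calr (-0.82 ± 0.15) and Canx (-0.48 ± 0.08) and H2-T24 (-0.74 ± 0.10) were lower. In contrast to class II, 14 of the 24 genes had a smaller difference in mock than in untransfected cells.

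The IL-4 genes were mostly lower in M1-like mock. Of 30 tested genes of alternative activation, 18 were lower and 6 higher, with a median of -1.36. Against M0 mock, 15 were lower and 7 higher in M1-like mock (median -0.82), beside 30% and 30.3% of all genes. In M2-like mock 13 were higher and 1 lower than in M0 mock (median 0.36), beside 2.19% and 1.64% of all genes. Cd209a, a C-type lectin, was without a read in M1-like mock and at least 23.21-fold lower, and the ribonuclease gene Rnase2a had 1 read against 62 (ratio 78.49, 13.58 to 3150). Among the higher members were negative feedback genes of the receptor pathway. Socs1, an inhibitor of JAK kinases, had 26.3, 55.9 and 44.9 CPM in M1-like mock against 3.58, 3.44 and 3 CPM (3.66 ± 0.28), and Cish, of the same family, had 3.7, 3 and 3.71 CPM against 0.832, 0.491 and 0.279 CPM (2.66 ± 0.36). The transcription factor gene Klf4 was higher too (1.5 ± 0.17). Of the 6 libraries, all 3 of M1-like mock were above all 3 of M2-like mock in these genes.

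Signalling genes went both ways. Of 21 genes of the JAK-STAT pathway and its inhibitors 10 were higher and 4 lower. Socs3, which limits IL-6 family signals, had 116, 184 and 142 CPM against 6.34, 7.29 and 6.69 CPM (4.44 ± 0.48), and Stat4, the transducer of IL-12, differed by 3.0 ± 0.61 from a low level. Socs2 was lower (-1.52 ± 0.45). Of 43 cytokine and cytokine receptor genes 21 were higher and 15 lower. Il18bp, the soluble decoy of IL-18, had 390, 268 and 363 CPM against 6.92, 9.39 and 6.41 CPM (5.49 ± 0.30), and Il12rb1 differed by 6.02 ± 0.34. The other chain of the IL-12 receptor, Il12rb2, went the opposite way, with 0.544, 0.737 and 1.1 CPM against 9.48, 7.64 and 8.02 CPM (-3.40 ± 0.31). Il1rl1, the IL-33 receptor, and Il1r1, the IL-1 receptor, were also lower (-3.60 ± 0.53 and -2.73 ± 0.30).

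Among 62 transcription factor genes of macrophages 20 were higher and 32 lower. Besides Irf1, Batf2 (3.57 ± 0.21) and Runx3 (2.75 ± 0.22) had the largest increases. Batf3, Myc and Id3 had the largest decreases. Myc, the growth regulator, had 3.37, 2.8 and 4.35 CPM against 21, 23.6 and 20.4 CPM (-2.63 ± 0.18), Batf3 differed by -2.74 ± 0.21 and the inhibitor of DNA binding Id3 by -2.59 ± 0.31. Gata6, the factor of resident large peritoneal macrophages, had 3.75, 2.8 and 3.48 CPM against 15.1, 20.5 and 18 CPM (-2.42 ± 0.22). The 12 markers of large peritoneal macrophages as a whole counted 3 lower and 0 higher genes, with a summed level of 70.2 to 91.5 CPM in M1-like mock and 73.5 to 127.7 CPM in M2-like mock, and 1 or 2 members were called higher without M1-like mock replicate 1 (1), M1-like mock replicate 3 (1) or M2-like mock replicate 2 (2).

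Genes of sterol and fatty acid synthesis were lower in M1-like mock. None of the 25 genes of cholesterol synthesis and uptake was higher in M1-like mock and 21 were lower, with a median of -1.24. Idi1, of the isoprenoid steps, had 6.14, 4.03 and 5.63 CPM in M1-like mock against 28.6, 30.9 and 37.7 CPM in M2-like mock (-2.63 ± 0.22). Cyp51, the lanosterol demethylase, had 19.7, 18 and 15.4 CPM against 72.2, 77.3 and 100 CPM (-2.23 ± 0.17). In both genes every M1-like mock library was below every M2-like mock library. Srebf2, the regulator of the pathway, differed by -1.18 ± 0.11. The letters of the CCAAT box, CCAAT, on either strand, were present in 16 of the 17 promoters of this list with an entry (94.1%), against 37.5% of all promoters. They were also frequent in the promoters of mitosis genes (84%), MHC class II (80%) and MHC class I (75%).

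The export side was lower together with synthesis. Of 19 genes of cholesterol efflux and of LXR, the nuclear receptor for oxysterols, 12 were lower and 5 higher, and 3 were higher without M1-like mock replicate 3. Apoe, the carrier of exported cholesterol, had 844, 527 and 992 CPM against 11277, 11176 and 14207 CPM (-3.96 ± 0.21). Lpl, which releases fatty acids from lipoproteins, had 228, 275 and 220 CPM against 3419, 4386 and 3516 CPM (-3.97 ± 0.15). The groups lay far apart in both genes. Abca9, a transporter of the ABCA family, differed by -4.15 ± 0.17, and Nr1h3, which encodes LXRα, by -1.95 ± 0.13. Ch25h, the maker of 25-hydroxycholesterol, was higher at a low level, 1.14, 1.33 and 1.16 CPM against 0.192, 0.0701 and 0.139 CPM (3.09 ± 0.80).

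Of 23 genes of fatty acid desaturation, elongation and activation 16 were lower and 1 higher, and of the 18 outside the signature 11 were lower and 1 higher. The desaturase gene Fads1 had 11, 12.4 and 12.9 CPM against 72.2, 82.6 and 81.3 CPM (-2.70 ± 0.10). Fads2 and Fads3, its neighbours, differed by -5.82 ± 0.52 and -2.95 ± 0.26. Acsl1, an acyl-CoA synthetase, was the higher member, with 117, 164 and 139 CPM against 48.9, 51.2 and 48.7 CPM (1.5 ± 0.12). Fatty acid oxidation had 9 lower and 1 higher of 22 genes with a median of -0.12, and without M1-like mock replicate 1 or M2-like mock replicate 3 it had 2 higher genes. Hadha, a subunit of the mitochondrial trifunctional protein, had 104, 101 and 100 CPM against 251, 262 and 254 CPM (-1.32 ± 0.06), and Ucp2, a mitochondrial carrier, differed by -2.06 ± 0.12.

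**Figure D4:**
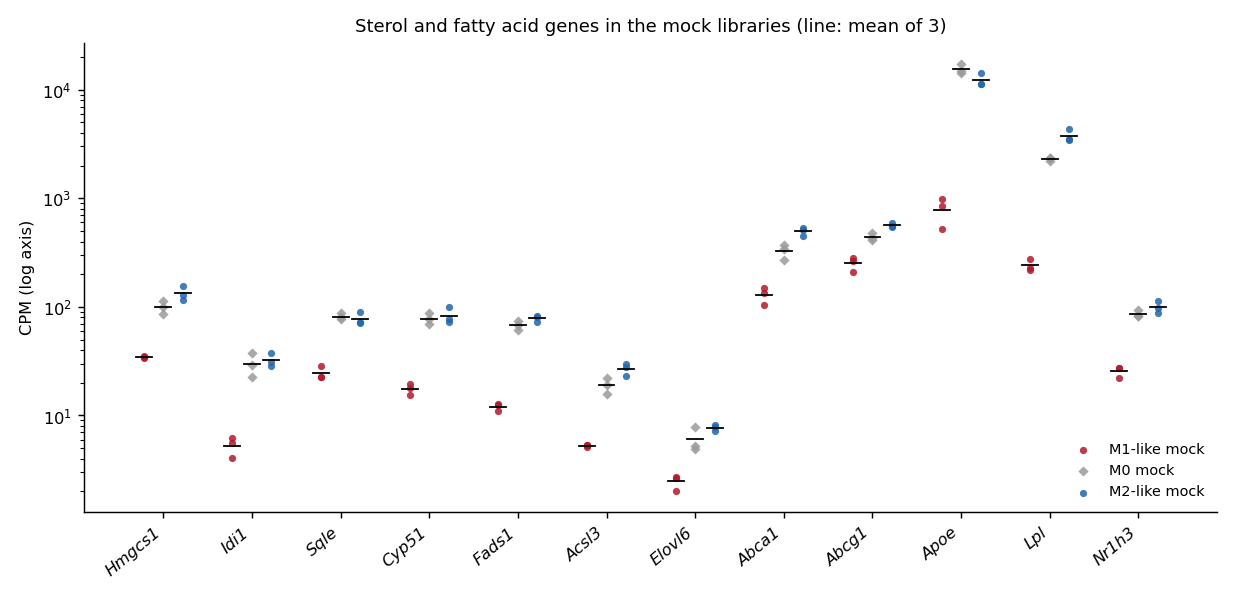
CPM on a log axis of 12 sterol and fatty acid genes in each of the 3 libraries of M1-like mock (red), M0 mock (grey) and M2-like mock (blue), with the mean as a line. In every gene the M1-like mock libraries are the lowest, and M0 mock lies near M2-like mock, as for Apoe with 14220, 17222 and 14760 CPM in M0 mock.

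Genes of the lysosome and of uptake were lower on balance. Of 38 lysosomal enzymes and cathepsins 21 were lower and 9 higher (median -0.29), of 17 V-ATPase subunits 12 were lower and 1 higher (median -0.44; 2 higher without M1-like mock replicate 3), and of 25 scavenger and efferocytosis receptors 16 were lower and 2 higher (median -0.88). Ctsl, a cysteine protease, had 1481, 1002 and 1352 CPM against 5709, 5928 and 5356 CPM (-2.15 ± 0.11), and Lipa, the acid lipase that frees cholesterol from its esters, had 586, 538 and 599 CPM against 2405, 2592 and 2456 CPM (-2.11 ± 0.06). Atp6v0a1, a subunit of the proton pump, had 107, 113 and 110 CPM against 732, 817 and 716 CPM (-2.78 ± 0.11). The libraries of a group were close to each other in these genes and far from the other group. Mfge8, a bridge to apoptotic cells, was lower (-2.44 ± 0.08), and Stab2, a scavenger receptor, had the largest decrease of its list (-5.30 ± 0.39). Higher members were Ppt1, a lysosomal thioesterase (1.46 ± 0.11), Ctsc (0.91 ± 0.15) and the receptor gene Havcr2 (1.25 ± 0.11). Of 7 subunit genes of the phagocyte NADPH oxidase 6 were lower, and 3 were lower without M1-like mock replicate 2, with Cyba at -0.43 ± 0.10.

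Glucose use and HIF targets were higher on balance, with 15 of 26 genes higher, 7 lower and a median of 0.59. Next to Acod1, Slc16a3, the lactate exporter, had 190, 224 and 210 CPM against 37.8, 36.2 and 40.8 CPM (2.44 ± 0.11), and Bnip3, a mitophagy receptor, had 33.8, 31.2 and 28 CPM against 7.68, 7.15 and 7.67 CPM (2.05 ± 0.12). Tkt, the transketolase of the pentose phosphate pathway, was lower, with 157, 166 and 180 CPM against 395, 405 and 404 CPM (-1.26 ± 0.07). In all 3 genes the groups were apart by more than their spread. Of 30 cell death and inflammasome genes 18 were higher and 3 lower. The death receptor gene Fas (2.78 ± 0.20), the sensor of cytosolic LPS Casp4 (2.44 ± 0.18) and the necroptosis effector gene Mlkl (1.18 ± 0.13) had the largest increases, and Nlrp1b the largest decrease (-1.11 ± 0.23).

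Housekeeping complexes shifted by small amounts. Of 31 proteasome subunits 18 were higher and 2 lower with a median of 0.22, and 11 were higher without M1-like mock replicate 3. Of 30 ribosome biogenesis genes 16 were higher and 2 lower with a median of 0.24, and 1 was lower without M1-like mock replicate 1 or without M2-like mock replicate 1 or 2. Rrp12, a ribosome export factor, had 32.6, 36.8 and 32.7 CPM against 15.9, 18.9 and 20.6 CPM (0.89 ± 0.11). Cytosolic ribosomal proteins showed no common direction, with 25 of 81 higher, 17 lower and a median of 0.02, and neither did complex I of the respiratory chain, with 16 of 45 higher and 7 lower (11 lower without M1-like mock replicate 3).

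The 13 proteins encoded by mitochondrial DNA had 9 lower genes and 1 higher, and no higher gene without M1-like mock replicate 1 or 3 or M2-like mock replicate 3. mt-Nd4, a complex I subunit, had 452, 533 and 657 CPM in M1-like mock against 977, 951 and 887 CPM (-0.78 ± 0.15). The share of mitochondrial reads overlapped between the groups, 1.33 to 1.69% against 1.32 to 1.56%.

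Mitosis genes were lower in 19 of 29 cases and higher in 1, with a median of -0.93, from low levels. Kif11, a spindle motor, had 0.326, 0.442 and 0.406 CPM against 2.24, 5.26 and 3.21 CPM (-3.15 ± 0.43), and Ube2c and Hmmr differed by -4.05 ± 0.68 and -3.39 ± 0.56. Cdca8, of the chromosomal passenger complex, was the higher member (0.67 ± 0.18). DNA replication genes had 11 lower and 6 higher of 36 with a median of -0.04. Ccne1, a cyclin of the start of replication, was higher (1.47 ± 0.19), and Mcm10, a replication initiation factor, lower (-1.69 ± 0.29).

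Chemokine and receptor genes went both ways. Of 11 CXC chemokine genes 2 were higher and 5 lower, and outside the signature 1 of 9 was higher and 5 lower. Of 13 CC chemokine genes 5 were higher and 4 lower, and outside the signature 1 of 6 was higher and 2 lower. Of 16 receptor genes 6 went each way, beside 30.9% higher and 29.8% lower among all genes tested. Cxcl16, a membrane-bound chemokine, had 239, 201 and 233 CPM against 40.3, 45.3 and 42.2 CPM (2.40 ± 0.15). Ccl6 had 95.2, 51.7 and 86.1 CPM against 908, 1049 and 776 CPM (-3.55 ± 0.25). Ccr2, the monocyte receptor for CCL2, had 0.217, 0.196 and 0.058 CPM against 6.27, 9.61 and 6.48 CPM (-5.47 ± 0.48). Each of the 3 genes separated the groups. The formyl peptide receptor gene Fpr2 (6.94 ± 0.85) and Ccr1 (2.46 ± 0.16) were higher, and the C5a receptor gene C5ar1 (-2.76 ± 0.13) lower.

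Of 16 integrin genes 5 were higher and 7 lower. Itgb7, the partner of α4 and αE integrins, had 1017, 1173 and 1212 CPM against 68.1, 77 and 71.3 CPM (3.97 ± 0.14). Itgal, a leukocyte adhesion integrin, was higher too (2.14 ± 0.12), and Itga3, a laminin receptor chain, lower (-3.73 ± 0.52). Of 17 co-stimulatory and checkpoint genes 8 were higher and 6 lower, led by Cd40, with 59.2, 62.8 and 52.8 CPM against 3.52, 5.47 and 3.21 CPM (3.84 ± 0.22), and Cd274, which encodes PD-L1, with 1924, 1938 and 1711 CPM against 260, 290 and 260 CPM (2.78 ± 0.08). Both were far above the spread of either group. Fc and Toll-like receptor genes had 14 lower and 5 higher of 24, with Tlr8, a sensor of single-stranded RNA, at -2.21 ± 0.14 and Cd14, the LPS co-receptor, at 1.25 ± 0.09.

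Complement, matrix and growth factor genes were lower on balance, and so were markers of fibroblasts and mesothelium. Of 29 complement and coagulation genes 16 were lower and 8 higher (median -0.79), of 25 matrix genes 13 were lower and 3 higher (median -1.05), and of 28 growth factor and TGF-β genes 17 were lower and 4 higher (median -0.71). Igf1, a growth factor of M2-like cells, had 18.5, 20.4 and 22.4 CPM against 247, 340 and 265 CPM (-3.80 ± 0.17), and Inhba, which encodes activin A, had 119, 79.1 and 68 CPM against 0.704, 1.26 and 1.25 CPM (6.37 ± 0.25). Thbs1, thrombospondin, had 881, 722 and 516 CPM against 44.2, 90.2 and 61.6 CPM (3.44 ± 0.37). No group overlapped the other in these genes. Vsig4, a receptor for complement fragments, was lower (-4.68 ± 0.37), as were the decay regulator gene Cd55 and the C5a receptor gene C5ar2 (-2.87 ± 0.14), while C1ra, a protease of the classical pathway (3.65 ± 0.24), and Cfb, factor B (4.32 ± 0.70), were higher.

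All 9 tested fibroblast and mesothelium markers of 10 listed were lower in M1-like mock, with a median of -3.0. Their summed level was 22.7 to 44.5 CPM in M1-like mock, 184.7 to 299.6 CPM in M2-like mock and 202.8 to 319.8 CPM in M0 mock. Wt1, a mesothelial factor, had 0.381, 0.196 and 0.522 CPM against 6.15, 8.9 and 9.34 CPM (-4.47 ± 0.43). Sparc, a matrix glycoprotein of the matrix list that fibroblasts express strongly, had 5.38, 8.2 and 10.2 CPM against 54.9, 96.9 and 91.6 CPM (-3.36 ± 0.36), and the growth factor gene Tgfb3 differed by -3.60 ± 0.47. In Wt1, Sparc and Tgfb3 the lowest M2-like mock library was replicate 1, which also had the lowest marker sum of its group. The part of these cells in the matrix and growth factor results was not tested.

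Markers of other leukocytes were at low levels. B cell markers summed to 8.54 to 31.1 CPM in M1-like mock and 22.8 to 44.1 CPM in M2-like mock (5 of 7 genes lower), mast cell markers to 0.174 to 0.491 CPM and 3.08 to 5.44 CPM (4 of 4 tested lower) and T cell markers to 2.46 to 3.15 CPM and 1.05 to 1.95 CPM (1 of 3 tested in each direction, the lower one not without M1-like mock replicate 2 or 3 or M2-like mock replicate 1 or 3). NK cell markers stayed under 0.544 CPM in both groups, with 2 tested genes and no call. Neutrophil markers summed to 80.6 to 93.8 CPM and 96.9 to 115.7 CPM (1 of 5 tested higher, 3 lower) with Ly6g, Mpo and S100a9 at 0 in both groups. Eosinophil markers had 1 tested gene, Siglecf (-4.23 ± 0.29), with Epx and Prg2 at 0 in M2-like mock and Ccr3, Ear1 and Ear6 at 0 in M1-like mock, and without M2-like mock replicate 2 or 3 a second marker was called lower. Dendritic cell markers had 2 of 4 tested genes in each direction (1 higher without M2-like mock replicate 2), with Siglech at 0 in both groups. Of 5 tested markers of small peritoneal macrophages and monocytes 4 were lower and 1, Ly6c2, higher, with no read in M2-like mock and at least 42.13-fold higher in M1-like mock.

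Further pathways were divided, beside 30.9% higher and 29.8% lower among all genes tested. Of 24 prostanoid and leukotriene genes 9 went each way. Ptgs2, the inducible cyclooxygenase, had 66.7, 53.7 and 44.3 CPM against 2.94, 4.35 and 2.93 CPM (4.01 ± 0.28), and Ptgs1, the constitutive form, had 7.45, 4.96 and 6.09 CPM against 44.5, 47.5 and 39.7 CPM (-2.84 ± 0.13). Both forms separated the groups in opposite directions. Of 18 iron genes 6 were higher and 8 lower. Slc25a37, the mitochondrial iron importer, had 243, 275 and 232 CPM against 35.5, 42.1 and 32.3 CPM (2.77 ± 0.11), Tfrc had 83.8, 84.7 and 76.6 CPM against 367, 349 and 342 CPM (-2.11 ± 0.09), and Trf, transferrin, differed by -3.57 ± 0.16. Of 17 genes of arginine transport, tetrahydrobiopterin and polyamines 3 were higher and 8 lower, with Odc1, the ornithine decarboxylase, at 1.31 ± 0.13 and Qdpr at -1.36 ± 0.07.

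Of 33 chaperone and unfolded protein response genes 12 were lower, such as Hspa5, the main chaperone of the endoplasmic reticulum (-1.03 ± 0.12), and 5 higher, such as Trib3 (2.09 ± 0.36) and Ddit3 (1.09 ± 0.14), both of the stress arm. Of 21 Nrf2 antioxidant genes 6 were higher and 7 lower, with the superoxide dismutase gene Sod2 at 1.94 ± 0.17 and the catalase gene Cat at -1.13 ± 0.09. Of 20 genes of cytosolic RNA and DNA sensing 7 were higher and 8 lower, with Tmem173, which encodes STING, at 0.93 ± 0.12 and Ddx58, which encodes RIG-I, at -0.91 ± 0.14. These 3 lists had medians between -0.16 and 0.04, against 0.03 over all genes tested, of which 30.9% were higher and 29.8% lower.

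Gene families, some of them taken by symbol, gave a similar mixture. The symbols also take in genes of other function, such as Rab3il1 among the Rab GTPases and Slc9a3r2 among the solute carriers. Of 208 solute carriers tested 62 were higher and 68 lower, close to the 30.9% and 29.8% of all genes tested. Slc6a19, a neutral amino acid transporter, had 18.9, 17.3 and 19.9 CPM against 0, 0.351 and 0.139 CPM (6.81 ± 0.44), and Slc36a2, a proton-coupled amino acid transporter, had 3 reads in M1-like mock against 110 (ratio 46.42, 15.47 to 228.5). Among C-type lectins 5 of 18 were higher and 8 lower, with Clec4e, the receptor Mincle, at 354, 308 and 283 CPM against 7.62, 10.2 and 7.46 CPM (5.23 ± 0.30). PARP genes had 7 of 12 higher and 2 lower, TRIM genes 17 of 43 higher and 9 lower, serpins 6 of 18 higher and 7 lower (4 lower without M2-like mock replicate 2), Ms4a genes 1 of 9 higher and 3 lower, Schlafen genes 2 of 7 higher and 1 lower (1 higher without M1-like mock replicate 2 or M2-like mock replicate 1), cytochrome P450 genes 3 of 18 higher and 10 lower, and Rab GTPases 15 of 57 higher and 23 lower.

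M0 mock cells place each side of the difference. M1-like mock against M0 mock gave 4299 higher and 4257 lower genes (60.4% of those tested), and M2-like mock against M0 mock gave 311 higher and 232 lower (3.83%). Both comparisons share the M0 mock libraries and are given side by side only. For Nos2 the values were 10.93 for M1-like mock and -0.45 for M2-like mock, the latter with an adjusted p of 0.863. Apoe had -4.29 and -0.33, and Cd274 2.70 and -0.08. Pparg, the lipid-sensing nuclear receptor, had -2.05 and 0.39, with means of 21.8 ± 2.06 CPM in M1-like mock, 90.5 ± 9.28 CPM in M0 mock and 119 ± 8.28 CPM in M2-like mock (SD, n = 3). For Igf1 the values were -3.26 and 0.53, and for Mmp12, the macrophage elastase, -2.13 and 0.42. In the cholesterol list 23 of 25 genes were lower in M1-like mock than in M0 mock, and 1 was higher in M2-like mock than in M0 mock.

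The polarization experiment of the same series gives the difference between M1-like and M2-like cells at 24 h, from 3 mice with single-end libraries. Time of harvest, culture, reagent, read length and sequencing site all change between the experiments and cannot be told apart. At 24 h 5025 of 15835 genes were higher and 5950 lower in M1-like cells. Of the 4373 genes higher in mock, 2307 were higher and 967 lower at 24 h, and of the 4224 lower in mock, 2561 were lower and 676 higher. The difference between both contrasts was tested in a joint model and passed in 8377 genes (52.9%), with 4447 larger and 3930 smaller values in mock.

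Among the positive differences, Rgs18, a regulator of G protein signalling, had a log2 fold change of -10.01 at 24 h and of -2.44 in mock, a difference of 7.57 ± 0.48. Its mean was 0.0192 ± 0.0167 CPM in M1-like cells at 24 h (SD, n = 3) and 4.44 ± 1.5 CPM in M1-like mock. Slc27a6 (6.97 ± 0.41), Tmem26 (6.72 ± 0.27), Hgf, the hepatocyte growth factor (6.04 ± 0.20), Fabp7, a fatty acid-binding protein (5.28 ± 0.25), and Clec2i (5.10 ± 0.37) came next. These 6 genes were below 2.2 CPM on average in M1-like cells at 24 h and above 4.4 CPM in M1-like mock.

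Antiviral genes made up the other end. At 24 h, Mx1 had a mean of 953 ± 138 CPM (SD, n = 3) in M1-like cells and of 2.39 ± 0.289 CPM in M2-like cells, against 26.4 ± 4.25 CPM and 34.1 ± 13 CPM in mock, a difference of -9.01 ± 0.40. Ifit3b (-10.22 ± 0.61), Ifi213 (-9.66 ± 0.44), Ifi44 (-8.83 ± 0.66), Ifit3 (-8.80 ± 0.52) and Mx2 (-8.53 ± 0.35) had differences of the same size. All 40 antiviral effectors had a smaller value in mock than at 24 h, with a median difference of -4.55, and all 40 were higher in M1-like cells at 24 h.

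Several lipid genes had another value at 24 h. Apoe was not called at 24 h (0.03, adjusted p = 0.902 by edgeR, with 4871 ± 260 CPM for M1-like cells and 4780 ± 875 CPM for M2-like cells, SD, n = 3) and was lower in M1-like mock, a difference of -3.98 ± 0.27. Abca1, the cholesterol exporter, was higher in M1-like cells at 24 h (2.43) and lower in M1-like mock (-1.95 ± 0.17), a difference of -4.37 ± 0.25. In the cholesterol synthesis list 17 of 25 genes were lower and 2 higher at 24 h. Ptgs2 had 11.42 at 24 h and 4.01 in mock (difference -7.41 ± 0.45), and Pparg had -7.50 and -2.45 (5.06 ± 0.15).

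**Figure D5:**
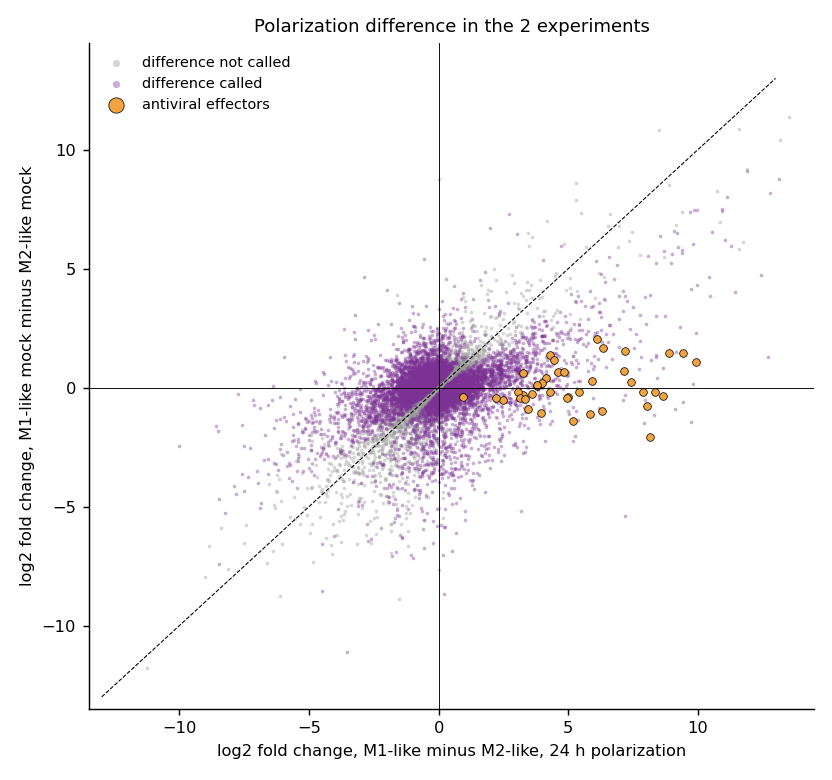
Log2 fold change of M1-like minus M2-like in mock cells against the same at 24 h of polarization, 1 point per gene tested in both, with genes whose difference was called in purple, others in grey and the antiviral effectors in orange (dashed line, equal values). The antiviral effectors lie to the right of 0 at 24 h, up to 9.92 for Ifi44, and around 0 in mock.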

How the data were processed

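RNA of mouse peritoneal macrophages was sequenced as paired-end (reprogramming, 36 libraries) and single-end (polarization, 18 libraries) reads. Per the labels and methods, the authors trimmed reads with Trimmomatic, aligned them to mm10 with TopHat2 and deposited raw counts per gene from featureCounts. Annotation release, strand setting and tool versions are not given in the sources used here. No deposited column was without a sample. Of 39179 gene identifiers, 37693 were matched to GENCODE annotation of GRCm38 for symbols and positions.

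Counts were fitted in edgeR 4.0.16 (R 4.3.3) with TMM factors and filterByExpr (minimum count 10, total 15) in 1 quasi-likelihood model of 12 conditions over the 36 libraries, so that all groups share the estimate of the spread. Contrasts were M1-like mock minus M2-like mock and its difference from the untransfected contrast. For the 24 h contrast, the 2 technical replicates of each mouse were summed and both experiments entered 1 model. P-values were adjusted by Benjamini-Hochberg over all genes tested. The fits were tested on simulated counts with 200 changed genes. Depth was 14959343 to 18092315 counted reads in the mock libraries.

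The gene lists were chosen with earlier results of these data known. Genes were named by rule: outside the signature, the 12 largest changes each way with complete separation and a mean log2 CPM of at least 2, the 4 largest among non-coding genes, up to 3 per list and direction with members that a list's role needs, and the 6 largest differences between contrasts each way (4 were available for larger values in mock against untransfected). Gbp2, Gbp7, Gbp9, Igtp, Ifit1, Isg15, Cd74, Srebf2, Nr1h3, Abca1, Pparg and Mmp12 stand for their list's role and were chosen after their values were seen. Some genes that the rule names are not reported here. Intervals for genes with 1 to 3 counts in a group are exact 95% intervals of the ratio, and bounds use a floor of 3 counts. Alternatives were DESeq2 1.42.0, other scaling and filters, a replicate block, a model of only the 6 libraries, technical replicates as separate samples, a fold threshold and leaving out each library. Figures were drawn with matplotlib 3.10.9.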

Additional observations from a re-analysis of the deposited data

Results flagged for a closer look

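The polarization difference of these genes was itself different between 2 settings, by a test of the difference in edgeR's quasi-likelihood model. They are the largest fitted differences of each sign among genes with a mean log2 CPM of at least 2. Values are the log2 fold change in mock minus that in the other setting.

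Against untransfected cells, the values were 0.52 for Cd48, 0.48 for Mrgpre, 0.47 for Tfrc and 0.41 for Rnf128, and they were -5.83 for Il12rb1, -5.71 for Ifit3b, -5.43 for Ifi213, -5.29 for Ifi44, -5.24 for Ifit3 and -5.24 for Ifit2. The value of Il12rb1 is a fitted one against untransfected M2-like libraries without a read, so its size and rank depend on the handling of zeros. Its call and those of Ifit3b, Cd48, Mrgpre, Tfrc and Rnf128 were each lost when certain single libraries were left out. Ifit3b, Ifi213, Ifi44, Ifit3 and Ifit2 had every M2-like mock library above every untransfected M2-like library.

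Against the 24 h experiment, the values were 7.57 for Rgs18, 6.97 for Slc27a6, 6.72 for Tmem26, 6.04 for Hgf, 5.28 for Fabp7 and 5.10 for Clec2i, and they were -10.22 for Ifit3b, -9.66 for Ifi213, -9.01 for Mx1, -8.83 for Ifi44, -8.80 for Ifit3 and -8.53 for Mx2. Ifit3b, Ifi213, Ifi44 and Ifit3 stand in both sets. Time of harvest, culture, reagent, read length and sequencing site cannot be told apart in the second set.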

How the results depend on the processing

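The 8597 calls between M1-like mock and M2-like mock numbered 7210 to 8958 under the alternatives that kept the threshold (DESeq2 8422), with 0 calls reversed in direction, and 7973 to 8237 without 1 library (higher 4014 to 4136, lower 3931 to 4101). With a change of 1 or more on the log2 scale required as well, 2938 genes were called (1156 higher, 1782 lower). For mock against untransfected cells, 160 genes became 177 with DESeq2, 102 at a fold change of at least 1 (1 larger, 101 smaller) and 111 to 172 without 1 library (larger 1 to 9, smaller 109 to 164), and the 5 larger values became 2 with RLE size factors. For mock against 24 h, 8377 genes became 8446 with DESeq2, 9033 with technical replicates as separate samples, 7956 to 8243 without 1 library and 4125 at a fold change of at least 1 (2080 larger, 2045 smaller). The cause of these changes was not tested beyond the stricter threshold and the fewer samples. Of 321 results for named genes, 300 kept their call and direction under every alternative in which the gene was tested. The other 21 lost the call under at least 1, and none reversed. Not every gene was tested in each alternative. The filter of at least 10 counts in every library of both mock groups left 209 of these results to be checked, all with the same call. Genes without or nearly without reads in a group could not pass it. Of 120 list counts, 100 stayed within 1.5 times. With only the 6 libraries in the model, 4 markers of large peritoneal macrophages were higher, and 2 of the mast cell and 2 of the small peritoneal macrophage markers were lower.

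Same-numbered mock libraries had correlations of deviations of 0.123, 0.026 and 0.256, against -0.207 to 0.12 for libraries of different numbers. Each M1-like mock library correlated best with the M2-like mock library of its own number. M2-like mock replicate 2, however, correlated best with M1-like mock replicate 1 (0.12). The labels name no mouse for these libraries, so the main model took no pairing. Whether same-numbered libraries share a source was not tested. With the replicate block, 8958 genes were called between the mock groups, 190 against untransfected cells (14 larger, 176 smaller) and 8663 against 24 h.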
